A study of Mus musculus with 12 samples.

Results

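Loss of ERRα in resting gastrocnemius was examined by comparing 3 arrays of sedentary ERRα-null mice with 3 arrays of sedentary wild-type mice, out of 12 arrays in the series. The members were taken from the sample titles, which give genotype, replicate number and exercise state. The gastrocnemius is a calf muscle of mixed but mostly fast fibres. Per the labels, all mice were FVB males of 2 to 3 months, and the null mice lack ERRα as a whole-animal genotype (ERRa-null) rather than through a muscle-specific deletion. The other 6 arrays, 3 per genotype, came from mice 2 h after treadmill running to exhaustion. They share the estimate of the spread in the model and are set beside the resting values below. The source name label contradicts the titles for 2 of the groups: it calls the sedentary null arrays post-exercise and the exercised wild-type arrays pre-exercise. The labels call the arrays of a group biological replicates.

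ERRα is the product of Esrra. This orphan nuclear receptor binds DNA response elements without a known natural ligand and gains most of its activity from the coactivators PGC-1α and PGC-1β. In muscle and heart its known targets include subunits of the respiratory chain, enzymes of the tricarboxylic acid (TCA) cycle and fatty acid oxidation, and regulators of pyruvate use. ERRβ and ERRγ, its relatives, bind the same element.

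Esrra itself was lower in the null muscle. Its log2 level was 7.61, 7.57 and 7.41 on wild-type arrays 1 to 3 and 6.55, 6.89 and 6.68 on null arrays 1 to 3, so the genotypes did not overlap. The difference was −0.82 ± 0.11 log2 (limma, adjusted p = 0.0238; each ± is the fitted standard error), which leaves 56.5% of the wild-type signal. Which exons its probes cover, and which part of the gene was deleted, is not given in the sources used here, so the remaining signal does not measure residual transcript. The heat shock gene Hspa1a, as a check of the exercise labels, was at 4.11 to 4.33 on sedentary wild-type arrays and 4.73 to 5.10 on sedentary null arrays. It was at 6.86 to 8.51 on the 6 exercised arrays, the order that the titles give.

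All 6 sedentary arrays were dominated by muscle RNA, and several also carried transcripts of other tissues. The summed level of the 10 skeletal muscle markers was 16.4 to 16.5 log2 on each of them, and Ckm, the muscle creatine kinase, was at 13.21 to 13.31. Such levels lie near the top of the arrays' range, where a difference may be compressed, so they do not show equal muscle content. Liver albumin (Alb) was at 12.82, 9.97 and 6.46 in wild type and 10.58, 11.83 and 6.24 in null muscle. The brown fat protein Ucp1 was at 4.67, 10.82 and 10.93 in wild type and 7.76, 5.01 and 9.43 in null muscle. The B-cell gene Cd79a was at 5.11, 7.97 and 7.78 in wild type and 8.95, 5.32 and 4.96 in null muscle. The seminal vesicle gene Svs5 was at 12.98 on null array 1 and at 3.98 to 4.49 on the other 5. Every sedentary array but null array 3 was high in at least 1 of liver, B-cell or seminal vesicle transcripts, in a pattern that differed from array to array within each genotype. Null array 3 in turn carried fat transcripts, with Ucp1 at 9.43 and the adipocyte gene Fasn at 10.75, against 5.01 and 8.05 on null array 2. The 3 arrays of the series with a female transcript profile, despite the male label, are exercised ones. They are wild-type array 3 and null arrays 2 and 3, so this profile is not balanced between genotypes after exercise. In whole-muscle RNA, fewer cells of a type and less RNA per cell cannot be told apart.

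**Figure D1:**
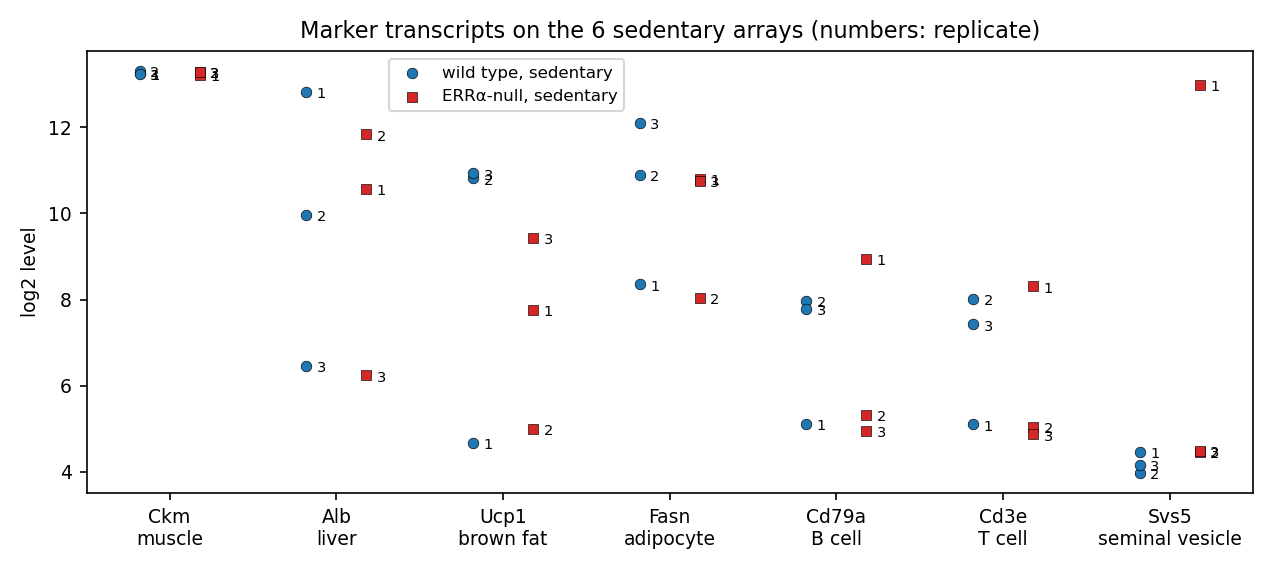
Log2 level of 7 marker transcripts on the 6 sedentary arrays, wild type as circles and ERRα-null as squares, with the replicate number beside each point. Ckm lies between 13.21 and 13.31 throughout, while Alb, Ucp1, Fasn, Cd79a, Cd3e and Svs5 differ between arrays of 1 genotype; levels of different transcripts are not comparable with each other.

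In resting muscle 11 of 13308 tested genes were called at an adjusted p under 0.05, which is 0.0827% of those tested. Of these, 7 were higher (0.0526%) and 4 lower (0.0301%) in the null mice. At an unadjusted p under 0.05 there were 541 higher and 553 lower genes, and the median difference over all tested genes was −0.00 log2. A further 26 genes had an adjusted p between 0.05 and 0.1. Both directions were thus about equally filled. The genes called are described by their roles below.

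The largest difference was that of Cabcoco1, a calcium-binding coiled-coil protein associated with cilia. Its level was 5.32, 5.02 and 5.41 in wild type, close to the level under which genes were not tested (5.32), and 8.69, 9.16 and 9.15 in null muscle. The fitted difference was 3.75 ± 0.18 log2 (adjusted p = 1.6e-06). The gene passed the filter on low values through the null arrays, so no fold is given against the wild-type level. Ctnna3, the αT-catenin of muscle cell junctions, is encoded on the same chromosome, 10, and was at 7.65, 7.64 and 7.74 in wild type and 8.14, 8.20 and 8.18 in null muscle (0.50 ± 0.07, adjusted p = 0.0238). The arrays of each genotype lay within 0.10 log2 of each other for Ctnna3.

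Pdk4 and Nr4a3, both genes that exercise and fasting are known to induce in muscle, were higher at rest. The kinase Pdk4 phosphorylates and inhibits pyruvate dehydrogenase, which holds back the entry of pyruvate into the TCA cycle. Its level was 10.85, 10.76 and 10.88 in wild type and 11.75, 11.66 and 11.52 in null muscle, 1.76-fold higher (0.81 ± 0.10 log2, adjusted p = 0.0159). Nr4a3, an orphan nuclear receptor of the early response to contraction, was at 5.30, 5.52 and 5.24 in wild type and at 7.30, 7.13 and 6.84 in null muscle (1.74 ± 0.22 log2, adjusted p = 0.0159). Its sedentary wild-type arrays lay around the level under which genes were not tested, so again no fold is given, and all 3 null arrays lay well above that level.

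Arrdc3, an α-arrestin that acts in the internalisation of membrane receptors, was at 8.40, 8.32 and 8.46 in wild type and 9.42, 9.25 and 9.51 in null muscle (0.998 ± 0.153, adjusted p = 0.0391). Cetn2, a centrin of the centriole that also takes part in DNA repair, was at 6.92, 6.66 and 7.03 against 7.46, 7.94 and 7.78 (0.86 ± 0.13, adjusted p = 0.0423). Ctsf, the lysosomal protease cathepsin F, was at 6.28, 6.12 and 6.26 against 6.79, 7.05 and 6.98 (0.72 ± 0.10, adjusted p = 0.0238). For each of these 3 genes the lowest null array lay above the highest wild-type array, which a call on these same arrays favours (6.91% of all genes lay so). Ctsf is on chromosome 19 with Esrra, 92 protein-coding genes away.

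Besides Esrra, 3 genes were lower. Frzb, a secreted antagonist of Wnt signalling, had the largest fall, from 8.20, 8.20 and 7.68 in wild type to 5.95, 6.60 and 6.92 in null muscle (−1.53 ± 0.23, adjusted p = 0.0391), which is 34.5% of the wild-type level. It also had the widest spread of the 4 among null arrays. Mrpl34, a protein of the large subunit of the mitochondrial ribosome, went from 8.21, 8.35 and 8.14 to 7.68, 7.74 and 7.66 (−0.54 ± 0.08, adjusted p = 0.0277). Ndufb9, an accessory subunit of respiratory complex I, went from 12.44, 12.52 and 12.56 to 12.01, 12.18 and 12.16 (−0.39 ± 0.06, adjusted p = 0.0391), or 76.1% of wild type. Mrpl34 and Ndufb9 thus fell to a smaller extent than Frzb but with tight replicates.

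**Figure D2:**
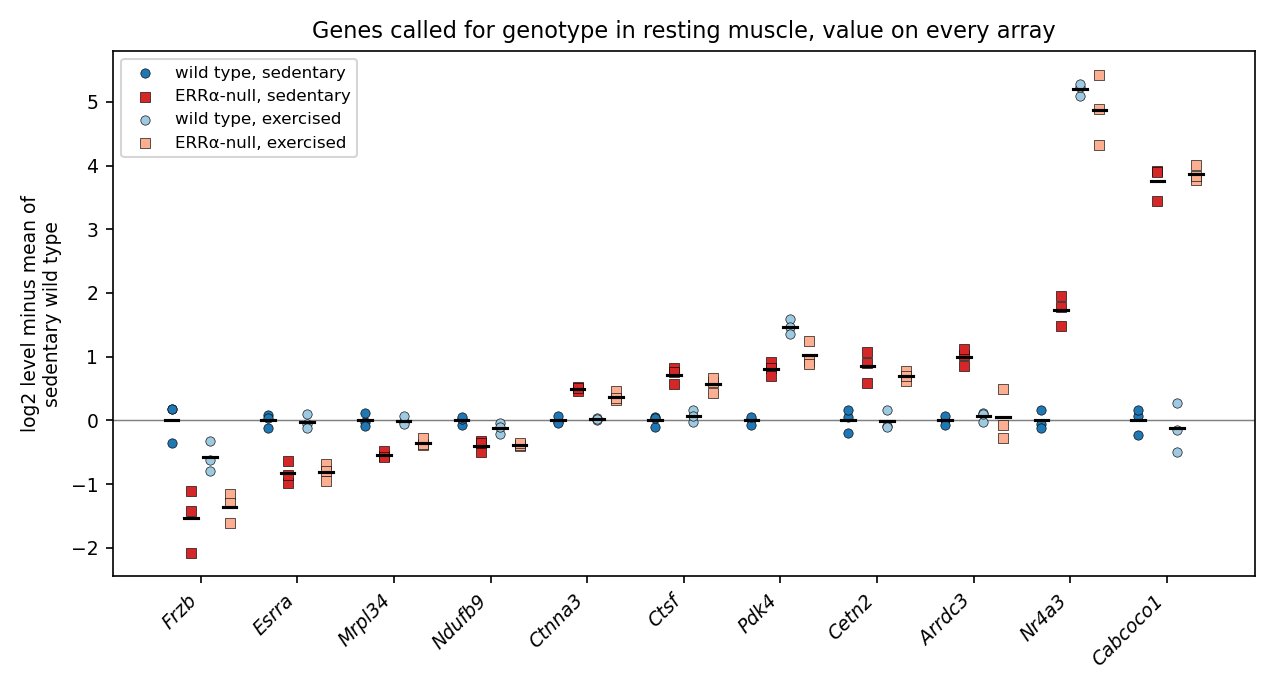
Level of the 11 genes called at rest on each of the 12 arrays (circles wild type, squares ERRα-null, dark sedentary, pale exercised), as log2 minus the mean of the sedentary wild-type arrays; bars are group means of 3 arrays. Sedentary null arrays lie apart from sedentary wild-type arrays for every gene shown, while exercised null arrays of Pdk4, Nr4a3 and Arrdc3 lie below or among the exercised wild-type arrays.

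These calls rest on few arrays. Cabcoco1 kept its call without any 1 of the 12 arrays. Without sedentary wild-type array 2 no other gene of the 11 passed (adjusted p from 0.0965 to 0.180), nor without wild-type array 1 (0.0581 to 0.124). Without null array 2, Esrra also passed (the others at 0.0725 to 0.147), and without null array 1, Ctsf and Cetn2 did (the others at 0.0521 to 0.108). Without null array 3, Pdk4, Nr4a3 and Frzb also passed (the others at 0.0966 to 0.151), and without wild-type array 3, 7 of the 11 passed (the others at 0.0516 to 0.0852). Omitting 1 of the exercised arrays, which enter through the shared spread only, left 3 to 9 of the 11, the fewest without exercised null array 3. Over the sedentary arrays left out, Frzb ranged from −1.75 to −1.26 and Pdk4 from 0.76 to 0.87. With only the 6 sedentary arrays, and also without the 3 arrays of female profile, Cabcoco1, Pdk4, Nr4a3 and Arrdc3 were the 4 genes called.

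The next 10 genes lower in null muscle by p did not pass. Ndufa4, a subunit of complex IV despite its name, was at 11.57, 11.60 and 11.44 in wild type and 10.91, 11.05 and 11.19 in null muscle (−0.49 ± 0.08, adjusted p = 0.0515). The outer-membrane fusion protein Mfn1 was at 10.07, 9.92 and 9.82 against 9.27, 9.48 and 9.39 (−0.55 ± 0.09, adjusted p = 0.0515). Ndufa8 of complex I (−0.54), Cox6b1 of complex IV (−0.37), the superoxide dismutase of the matrix, Sod2 (−0.47), and Sdhaf2, which assembles complex II (−0.39), had adjusted p from 0.0737 to 0.0897. The remaining 4 were Gnb5, a G protein β subunit (−0.69), Cntfr, the receptor for ciliary neurotrophic factor (−0.71), the glutathione transferase Gstp2 (−0.67) and the membrane receptor Paqr9 (−0.78). Every null array lay under every wild-type array for each of the 10, against 6.53% of all genes. Their choice by p on these same arrays favours this.

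The next 10 genes higher in null muscle did not pass either. Zyg11b, a substrate receptor of a ubiquitin ligase, was at 9.19, 9.13 and 9.24 in wild type and 9.55, 9.69 and 9.63 in null muscle (0.44 ± 0.07, adjusted p = 0.0516). Atcayos, the antisense transcript of Atcay, lay 0.90 higher, Gamt, which makes creatine, 0.78, and Ppp1r1a, an inhibitor of protein phosphatase 1, 0.75. Smpdl3b (0.67), the imprinted zinc finger gene Peg3 (0.54), the arsenic methyltransferase As3mt (0.49), the actin-binding twinfilin Twf2 (0.47), the methyltransferase partner Trmt112 (0.43) and the membrane protease Sppl2a (0.42) had adjusted p from 0.0796 to 0.0897. Trmt112 is the gene next to Esrra on chromosome 19.

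The subunits of the respiratory chain encoded in the nucleus lay lower in null muscle almost without exception. Of 73 tested subunits of complexes I to V and cytochrome c, 72 had a mean below wild type, with a median of −0.27 log2, or 82.7% of the wild-type level; over all 13308 genes 6707 lay below. For 35 of them (47.9%) every null array was below every wild-type array, and for 0 every null array was above. Over all genes these shares were 6.53% and 6.91%. Only Ndufb9 was called. A test over such a list was not made, since its members were chosen with results known.

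Complex I takes electrons from NADH, and all 31 of its tested subunits lay below wild type, with a median of −0.30 and 17 without overlap. After Ndufa8, the largest differences were those of Ndufa1 (−0.45), at 9.85, 9.91 and 9.60 against 9.31, 9.26 and 9.43, and Ndufc2 (−0.44), followed by Ndufb8, Ndufb10 and Ndufab1 (each −0.40), and none of these 5 passed. Ndufs3, a core subunit, was at 7.35, 7.36 and 7.33 in wild type and 6.89, 7.07 and 7.03 in null muscle (−0.35, adjusted p = 0.128). The smallest differences, about −0.03, were those of Ndufa6, Ndufv3 and Ndufb11. The complex as a whole therefore lay lower by unequal amounts.

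Complexes II and III with cytochrome c, which pass electrons from succinate and ubiquinol, lay below wild type in 13 of 13 genes (median −0.24, 6 without overlap). The largest was Uqcrh, the hinge protein of complex III, at 9.59, 9.56 and 9.66 in wild type and 8.59, 9.20 and 9.11 in null muscle (−0.63 ± 0.13, adjusted p = 0.128). Null array 1 was the lowest by a wide margin. Sdha, the flavoprotein of complex II, went from 11.50, 11.48 and 11.38 to 10.95, 11.10 and 11.18 (−0.38, adjusted p = 0.0902), and cytochrome c itself, Cycs, from 12.19, 12.27 and 12.02 to 11.60, 11.89 and 11.75 (−0.42, adjusted p = 0.183).

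Complex IV reduces oxygen, and 13 of its 14 tested subunits lay below wild type (median −0.28, 5 without overlap). Cox4i1, the ubiquitous form of subunit 4, was at 10.81, 10.82 and 10.37 against 9.96, 10.13 and 10.24 (−0.55 ± 0.12, adjusted p = 0.140). Cox7b was the exception of all 73 subunits: its arrays, 10.93, 11.06 and 10.60 against 10.82, 11.05 and 10.93, overlapped (0.07, adjusted p = 0.953).

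Complex V is the ATP synthase, and 15 of its 15 tested genes lay below wild type (median −0.25, 7 without overlap). Atp5b, the catalytic β subunit, went from 12.82, 12.84 and 12.76 to 12.50, 12.57 and 12.67 (−0.23, adjusted p = 0.182). Atp5g3, a form of the membrane ring subunit c, went from 9.92, 9.85 and 9.74 to 9.36, 9.50 and 9.55 (−0.36, adjusted p = 0.179). Atpif1, the inhibitor of the synthase, had overlapping arrays and the smallest difference (−0.05).

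The promoters of these genes were searched for the element that ERR proteins are known to bind. RefSeq promoters of GRCm38.p6, 250 bases before to 50 after a gene's start, were read on both strands for TNAAGGTCA and for its core AAGGTCA, which lies inside it. The core was found in 5 of 14 promoters of complex V genes (35.7%) and in 6 of 61 of all respiratory chain genes with a promoter in the table (9.84%), against 403 of 10407 tested genes (3.87%) and 4.72% of all 32851 promoter windows. The 28 complex I promoters and the 11 of complex IV held none. Shares were counted for all lists and complex V is described after its share was seen; the import and chaperone list held the core in 6 of 30 promoters (20%). The full element was in 2 of the 61, Atp5g3 and Sdhd (3.28%), against 85 of the 10407 (0.817%) and 1.28% of all windows. Of the 11 genes called at rest, 10 had a promoter in the table and 0 held either form, and among the next 10 lower genes Gnb5 held the core. A match is a description of these letters, and no binding was measured here. Below are the matches that lie wholly before the gene's start in complex V genes and Gnb5, read on the gene's strand with up to 20 bases on each side and the match in capitals (TGACCTT is the core read from the other strand). None of these matches was left out for its gene's expression values. The arrays of Atp5g3, Atp5l and Gnb5 did not overlap, and Atpif1 is the complex V gene with the smallest difference.
Atp5g3, chr2:73911350-73911398, minus strand: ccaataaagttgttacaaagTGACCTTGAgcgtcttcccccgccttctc
Atp5l, chr9:44920743-44920775, minus strand: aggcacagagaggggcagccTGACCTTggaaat
Atpif1, chr4:132535627-132535664, minus strand: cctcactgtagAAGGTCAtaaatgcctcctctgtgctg
Gnb5, chr9:75306057-75306103, plus strand: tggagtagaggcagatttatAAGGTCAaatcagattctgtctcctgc
The match begins 52 bases before the start of Atp5g3, 13 before that of Atp5l, 239 before that of Atpif1 and 211 before that of Gnb5. Atp5l lay at 11.14, 10.98 and 11.47 in wild type and 10.62, 10.85 and 10.73 in null muscle (−0.46, adjusted p = 0.436), and Gnb5 at 6.18, 6.38 and 6.04 against 5.42, 5.49 and 5.61. None of the 4 genes shown was called (Gnb5 had an adjusted p of 0.0515), and the arrays of Atpif1 overlapped.

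The respiratory chain subunits encoded by mitochondrial DNA did not share the pattern of the nuclear ones. Of the 10 tested, a list added after the data were seen, 6 lay below and 4 above wild type, with a median of −0.01 and a range from −0.15 (ND3) to 0.07 (ND4). Cytochrome b, CYTB, was at 13.45, 13.49 and 13.49 in wild type and 13.47, 13.45 and 13.50 in null muscle. ND3 was at 13.38, 13.42 and 13.38 against 13.22, 13.25 and 13.26 (adjusted p = 0.252), and ND6, the dimmest, at 11.11, 11.30 and 10.68 against 11.12, 11.01 and 11.14. Except for ND6 these levels lie at the top of the arrays' range, where a difference may be compressed, and the part of this in the small differences was not tested.

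**Figure D3:**
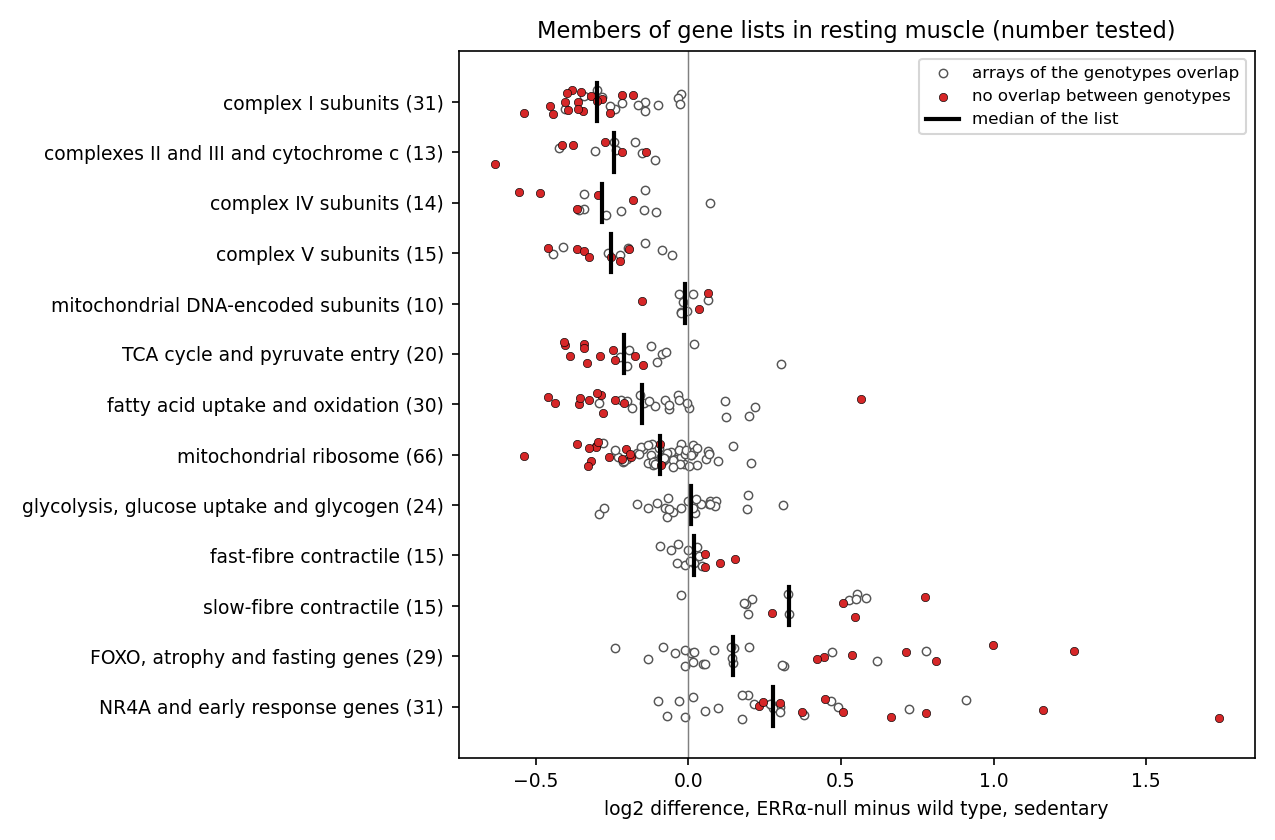
Difference between ERRα-null and wild-type sedentary muscle (log2) for each tested member of 13 gene lists, with the number tested in parentheses; filled points mark genes whose arrays do not overlap between genotypes, bars the list median. The nuclear respiratory chain lists lie left of 0 with medians from −0.30 to −0.24, the subunits encoded by mitochondrial DNA around 0, and the slow-fibre and early response lists right of it with medians of 0.33 and 0.28.

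Mitochondrial enzymes upstream of the chain lay lower too. Of 20 genes of the TCA cycle and pyruvate entry, 18 were below wild type (median −0.21) and 11 did not overlap (55.0%). Dlst of the 2-oxoglutarate dehydrogenase complex went from 10.30, 10.32 and 10.16 to 9.65, 9.98 and 9.93 (−0.41, adjusted p = 0.137). Dld, the subunit shared by the 2-oxoacid dehydrogenases, went from 10.72, 10.75 and 10.58 to 10.23, 10.37 and 10.43 (−0.34, adjusted p = 0.132), and fumarase, Fh1, lay at −0.33. Idh2, the NADP-dependent isocitrate dehydrogenase, was the largest exception (0.30), with overlapping arrays of 11.10, 10.82 and 10.58 against 10.93, 11.22 and 11.26. None of the 20 was called.

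Of 30 genes of fatty acid uptake and oxidation, 24 lay below wild type (median −0.15), 10 without overlap, and 0 were called. Acadvl, the very long-chain acyl-CoA dehydrogenase, was at 10.25, 10.27 and 10.09 against 9.60, 9.81 and 9.89 (−0.44 ± 0.08, adjusted p = 0.0902). Cpt2 of the inner membrane (−0.35) and Acadl (−0.28) lay lower on all null arrays than on any wild-type array. Ucp3, a mitochondrial carrier of the uncoupling protein family, went the other way, from 8.63, 8.74 and 8.60 to 9.28, 9.56 and 8.82 (0.57 ± 0.15, adjusted p = 0.268). It was the only gene of the 30 with all null arrays above all wild-type arrays (4 were so without null array 1, or 13.3% against 15.2% of all genes). All 19 genes of ketone and branched-chain amino acid breakdown lay below (median −0.13, 6 without overlap), among them Acat1 (−0.27) and Hibadh (−0.27).

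Lists of mitochondrial construction differed less. Of 38 assembly factors of the chain 31 lay below wild type (median −0.15), of 66 mitochondrial ribosomal proteins 51 (median −0.09, 15 without overlap), and of 34 import and chaperone genes 27 (median −0.09). Mrpl34 was the only gene called in these 3 lists. Mrpl18 (−0.30), Mrpl12 (−0.36), the inner-membrane organiser Immt (−0.32) and the matrix chaperone Hspa9 (−0.20) lay apart without passing. Of 26 SLC25 carriers of the inner membrane 19 lay below (median −0.06), and their shares without overlap, 7.69% lower and 3.85% higher, were near those of all genes. Fission and fusion genes other than Mfn1 were closer to wild type, such as Mfn2 (−0.17) and Opa1 (−0.20). Glycolysis, glucose uptake and glycogen genes lay on both sides, 11 below and 13 above (median 0.01), and 0 of 24 were free of overlap. Without null array 1, 6 of the 24 were higher free of overlap, as were 15.2% of all genes. Without wild-type array 2, 3 of the 24 were, as were 10.7% of all genes.

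These list values were set by all sedentary arrays to unequal degrees. The complex I median was 0.07, 0.09 and −0.16 on wild-type arrays 1 to 3 and −0.43, −0.25 and −0.21 on null arrays 1 to 3, relative to the wild-type mean, so null array 1 lay lowest and wild-type array 3 nearest to the null arrays. Without null array 1, 69 of 73 respiratory chain subunits lay below (median −0.21, 49.3% without overlap against 10.8% of all genes). Over all 6 omissions the count ran from 69 to 73 and the median from −0.32 to −0.21. Without wild-type array 3, 64 of the 73 were free of overlap (87.7% against 12.4% of all genes). That omission took complex I from 17 to 29 members without overlap, complexes II and III from 6 to 13, complex IV from 5 to 10 (8 without wild-type array 1) and complex V from 7 to 12 (11 without null array 3). It also took the mitochondrial ribosome from 15 to 27 (23 without null array 3) and ketone and branched-chain genes from 6 to 10 (11 without null array 3). The share of all genes that were lower free of overlap was 11.7% without wild-type array 1 and 12.2% without null array 3. Complexes II and III moved from −0.24 to −0.16 without null array 1, the assembly factors from −0.15 to −0.06, the mitochondrial ribosome from −0.09 to −0.02, with 35 of 66 members below, the import genes from −0.09 to −0.05 and the SLC25 carriers from −0.06 to −0.02. Without null array 3 the mitochondrial ribosome was at −0.15 and the SLC25 carriers at −0.09, and without wild-type array 3 the carriers were at −0.10. Import genes were at −0.06 without wild-type array 1. Null array 1 is also the only sedentary array with seminal vesicle transcripts. Its B-cell gene Cd79a was at 8.95, but wild-type arrays 2 and 3 also carried it, at 7.97 and 7.78. Whether these transcripts bear on the list values was not tested.

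Markers of other tissues differed between genotypes beside these lists, and depended on single arrays. All 7 tested brown fat markers lay below wild type with a median of −0.75, which was −0.14 without wild-type array 1, −0.35 without wild-type array 2, −0.23 without wild-type array 3, −0.19 without null array 2 and −0.49 without null array 3. Elovl3, a fatty acid elongase, was at 5.97, 7.60 and 7.85 against 5.16, 5.31 and 5.72 (−1.74, adjusted p = 0.132), while Ucp1 and Cidea overlapped and Prdm16 (−0.06) and Dio2 (−0.03) hardly differed. Elovl3 was at 4.45 to 4.90 on the 6 exercised arrays. These and null arrays 1 and 2 lie under the level below which genes were not tested (5.32). The gene passed that filter through the sedentary wild-type arrays. The summed level of the list, 12.04, 12.67 and 12.55 on wild-type and 11.78, 11.88 and 12.12 on null arrays, is largely that of Cox8b (11.53 to 11.97), which is also 1 of the 73 respiratory chain subunits. Ucp1 was at 4.67, 10.82 and 10.93 on wild-type arrays 1 to 3 and 7.76, 5.01 and 9.43 on null arrays 1 to 3. The complex I median was at 0.07, 0.09 and −0.16 on the same wild-type arrays and −0.43, −0.25 and −0.21 on the null ones. A relation between them was not tested. The 11 endothelial markers lay below (median −0.18), with 0 free of overlap. Without null array 2, 8 were free of it (72.7% against 12.3% of all genes), and without wild-type array 1, 6 were (54.5% against 11.7%). Their median was −0.11 without wild-type array 3. Of 11 fibroblast markers 10 lay below (median −0.20; −0.43 without null array 2, −0.10 without null array 1 or 3, −0.11 without wild-type array 2). Of 11 macrophage markers 10 lay below (median −0.14; −0.07 without null array 3, −0.23 without null array 1, and −0.27 and −0.21 without wild-type arrays 1 and 2). When scores for liver, adipocyte and lymphocyte RNA entered the model, the complex I median was −0.34 and that of complex V −0.29. These scores held no term for brown fat, endothelial or seminal vesicle RNA. The part of RNA of other tissues in the list values was not tested.

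**Figure D4:**
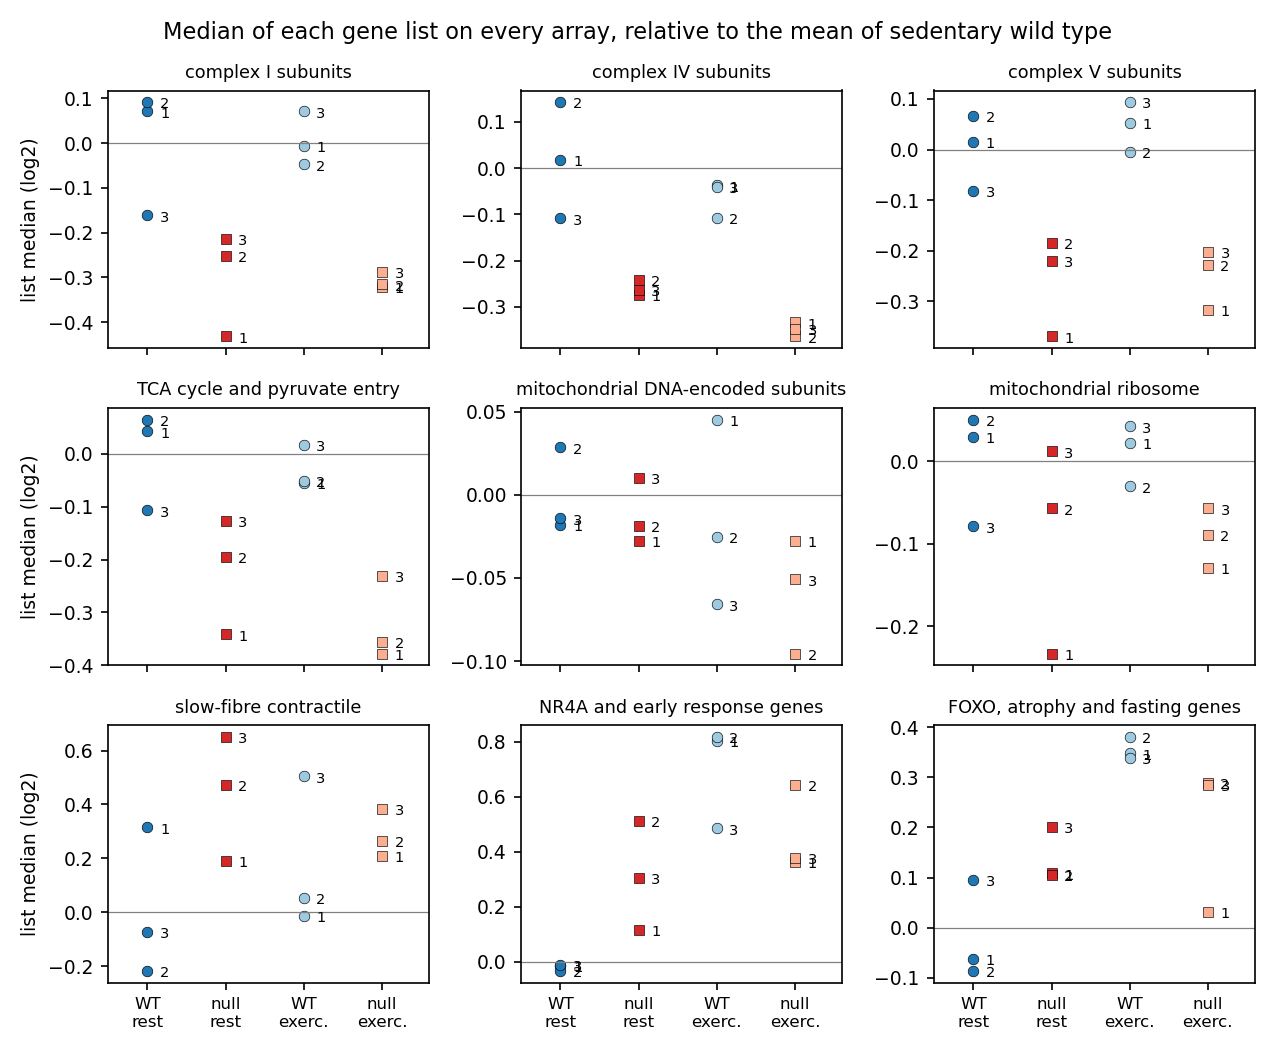
Median of 9 gene lists on each of the 12 arrays (log2, each gene relative to the mean of the sedentary wild-type arrays; circles wild type, squares ERRα-null, the number being the replicate). For complexes I, IV and V and the TCA cycle every sedentary null array lies below every sedentary wild-type array, whereas the lists of mitochondrial DNA-encoded subunits, the mitochondrial ribosome and the slow fibre overlap between genotypes at rest; vertical scales differ between panels.

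The regulators that act with ERRα were mostly at wild-type level. Of 25 tested genes of ERR and PGC-1 regulation only Esrra was called, 18 lay below and 7 above, and the median was −0.02. The relatives Esrrg (7.50, 7.29 and 6.92 against 7.25, 7.28 and 7.43) and Esrrb (5.92, 5.96 and 5.29 against 5.64, 5.87 and 5.95) overlapped. Ppargc1a, which encodes PGC-1α, was at 9.66, 9.44 and 9.36 in wild type and 10.16, 9.80 and 9.86 in null muscle (0.45 ± 0.12, adjusted p = 0.266), and Ppargc1b overlapped (0.05). Nrip1, a corepressor of the ERRs, lay 0.29 higher without overlap (adjusted p = 0.473). The mitochondrial transcription factor Tfam, at 7.24, 7.28 and 7.14 against 6.50, 7.10 and 7.13 (−0.31, adjusted p = 0.599), owed most of its difference to null array 1. Nrf1 (0.07), Gabpa (−0.07), Ppard (−0.01) and Sirt1 (−0.12) had overlapping arrays.

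Among the kinases and phosphatases that set pyruvate dehydrogenase activity, Pdk4 was the only one called. The phosphatase subunits Pdp1 (−0.19), Pdp2 (−0.29) and Pdpr (−0.31) did not pass, and Pdp1 and Pdpr overlapped. Pdha1, the subunit that these enzymes act on, went from 10.75, 10.79 and 10.52 to 10.20, 10.39 and 10.44 (−0.34, adjusted p = 0.204).

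Early response genes lay higher as a list, led by Nr4a3. Of 31 members 27 were above wild type (median 0.28) and 10 had every null array above every wild-type array, or 32.3% against 6.91% of all genes. Nr4a3 was the only one called. Sik1, a salt-inducible kinase, was at 7.79, 7.49 and 7.62 in wild type and 8.37, 9.31 and 8.70 in null muscle (1.16 ± 0.26, adjusted p = 0.159), and the antiproliferative gene Btg2 at 6.44, 6.65 and 7.01 against 7.11, 7.88 and 7.45 (0.78, adjusted p = 0.303). The other NR4A receptors overlapped: Nr4a1 was at 10.18, 10.11 and 10.39 against 10.34, 11.07 and 10.74, and Nr4a2 at 6.64, 6.42 and 6.52 against 6.38, 8.54 and 7.39. For Sik1, Btg2, Nr4a1 and Nr4a2 null array 2 was the highest and null array 1 the lowest of the null arrays. The list median was 0.44 without null array 1, with 21 of 31 members free of overlap (67.7% against 15.2% of all genes), and 0.21 without null array 2.

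Genes of fasting and atrophy that FOXO factors are known to control lay higher in 23 of 29 members (median 0.15, 7 without overlap, or 24.1% against 6.91% of all genes), with Pdk4 and Arrdc3 called. Ddit4, an inhibitor of mTORC1, was at 6.63, 6.84 and 6.41 against 7.23, 8.99 and 7.46 (1.26 ± 0.56, adjusted p = 0.590). Null array 2 was the highest of these. The wide error is fitted over all groups of the model, so it is not that of the sedentary arrays alone. Mstn, encoding the growth inhibitor myostatin, was at 10.03, 10.27 and 10.16 against 10.35, 10.70 and 10.75 (0.45, adjusted p = 0.182), and the atrophy ubiquitin ligase Trim63 lay 0.54 higher (adjusted p = 0.641). Foxo1 (0.14) and Foxo3 (−0.01) themselves overlapped. The list median was 0.07 without wild-type array 1 and 0.25 without wild-type array 3, when 17 of 29 were free of overlap (58.6% against 13.6% of all genes).

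Contractile genes of slow fibres lay higher in 14 of 15 members (median 0.33), 4 of them without overlap (26.7% against 6.91% of all genes), and 0 were called. The slow myosin Myh7 was at 10.72, 9.81 and 10.30 in wild type and 10.78, 11.08 and 11.29 in null muscle (0.77 ± 0.26, adjusted p = 0.409), and Myoz2 of the Z-disc at 10.52, 10.25 and 10.32 against 10.59, 10.96 and 11.05 (0.51, adjusted p = 0.237). Wild-type array 1 was nearly as high as null array 1 for both. Without null array 1 the list median was 0.50 and 12 of 15 members were free of overlap (80% against 15.2% of all genes), and without wild-type array 1 these were 0.49 and 10 of 15 (66.7% against 11.2%). Myoglobin, Mb, rich in oxidative fibres, was at −0.02. Fast-fibre genes lay 9 above and 6 below with a median of 0.02, and Actn3 was at 13.22, 13.30 and 13.29 against 13.40, 13.43 and 13.43 (0.15, adjusted p = 0.253). Cytosolic ribosomal proteins lay above wild type in 26 of 29 members by small amounts (median 0.12, 10 without overlap, or 34.5% against 6.91% of all genes), such as Rpl15 (0.16).

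The exercised mice gave values for the same genes on other arrays. There 50 of 13308 genes were called for genotype (0.376%). Of the 3 female-profile arrays 2 are null and 1 is wild type. A fit without them thus sets exercised null array 1 alone against wild-type arrays 1 and 2. Of the 11 genes called at rest, 8 had the same sign after exercise and no overlap between genotypes, and 2 of them, Cabcoco1 (3.99 ± 0.18, adjusted p = 7.71e-07) and Esrra (−0.78 ± 0.11, adjusted p = 0.0227), were called again. Without the female-profile arrays Esrra was at −0.70 (adjusted p = 0.397). It also did not pass without exercised null array 2 (−0.71, adjusted p = 0.0537) or 3 (−0.79, adjusted p = 0.0904), or without exercised wild-type array 1 (−0.80, adjusted p = 0.0770) or 2 (−0.72, adjusted p = 0.0670). Cetn2 (0.70), Ctsf (0.49), Ctnna3 (0.35), Frzb (−0.78), Mrpl34 (−0.34) and Ndufb9 (−0.26) had adjusted p from 0.0512 to 0.206. The next 10 lower genes all kept their sign, 9 of them without overlap, and Ndufa4 (−0.51), Mfn1 (−0.76), Cntfr (−0.75) and Sod2 (−0.56) were called. Of the next 10 higher genes 9 kept it, and Gamt (0.99), As3mt (0.62) and Trmt112 (0.50) were called. Without the female-profile arrays none of these 7 passed (adjusted p from 0.132 for Cntfr to 0.434 for Trmt112, with Mfn1 at 0.173). With single exercised arrays left out, Mfn1 passed each time. Ndufa4, Cntfr and Sod2 failed to pass in each of the 6 omissions, As3mt passed only without null array 2, Trmt112 only without wild-type array 2, and Gamt only without null array 1 or wild-type array 3, with adjusted p up to 0.0984. With only the 6 exercised arrays Mfn1 and Sod2 kept their call, while Ndufa4, Cntfr, Gamt, As3mt and Trmt112 lost theirs, as did Esrra. Both comparisons share each gene's spread in the model, so a choice by small p at rest favours a call after exercise. For the respiratory chain 72 of 73 subunits again lay below wild type (median −0.30), and 62 did not overlap; over all genes 1239 of 13308 were lower without overlap there (9.31%) and 884 higher (6.64%).

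**Figure D5:**
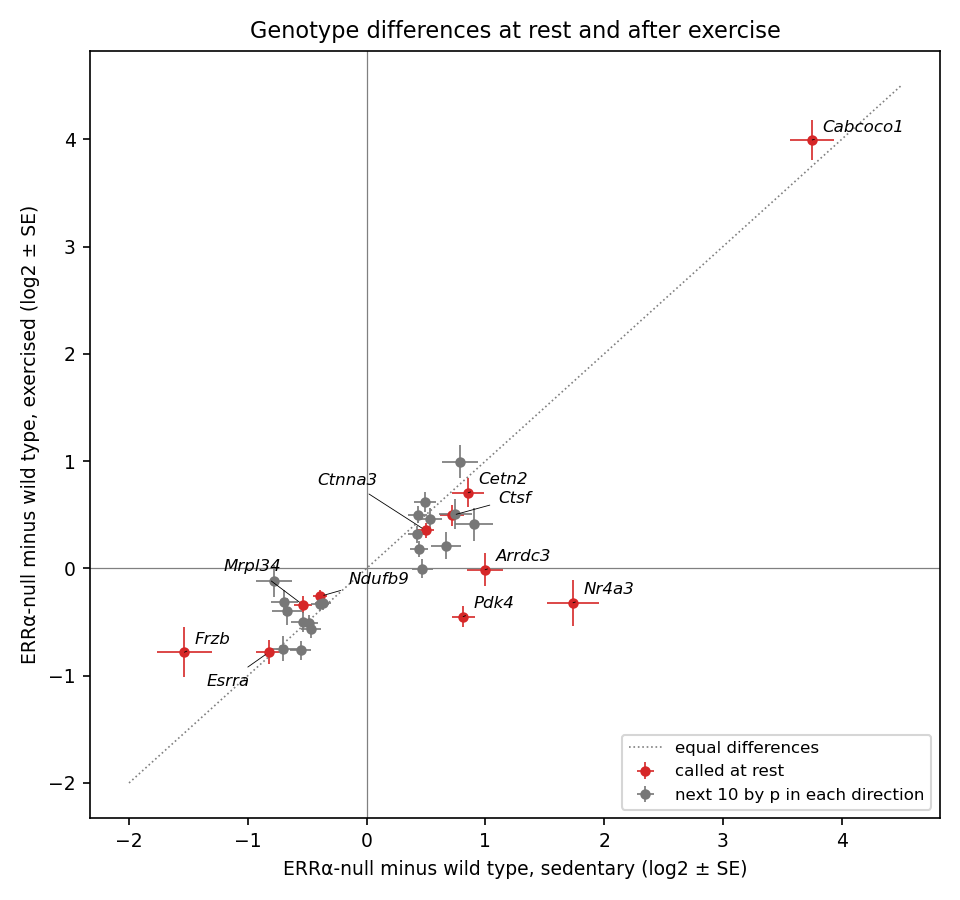
Genotype difference (ERRα-null minus wild type, log2 ± SE of the model) in sedentary muscle on the horizontal axis and in exercised muscle on the vertical axis for the 11 genes called at rest and the next 10 by p in each direction; the dotted line marks equal differences. Most points lie near the line, and Pdk4, Nr4a3 and Arrdc3 lie below it, with differences of 0.81, 1.74 and 0.998 at rest against −0.45, −0.32 and −0.01 after exercise.

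The 3 genes whose difference at rest did not recur were Pdk4, Nr4a3 and Arrdc3. After exercise Pdk4 was at 12.41, 12.29 and 12.19 in wild type and 12.08, 11.76 and 11.71 in null muscle (−0.45 ± 0.10, adjusted p = 0.0713). It passed in only 2 of 16 settings, over which the difference ran from −0.56 to −0.27. One was a limma fit of the 6 exercised arrays blocked by replicate number, since equal numbers correlate there (adjusted p = 0.0413). The other was the fit without exercised null array 1 (adjusted p = 0.0313). The difference between the resting and the exercised effect was 1.26 ± 0.14 log2 (adjusted p = 0.0121), the only 1 of 13308 such tests to pass (0.00751%). It did not pass without exercised null array 3 (1.19, adjusted p = 0.0517), without sedentary null array 2 (1.26, adjusted p = 0.0632), or without wild-type array 1 exercised (1.204, adjusted p = 0.0555), 2 exercised (1.27, adjusted p = 0.0611) or 2 sedentary (1.23, adjusted p = 0.0709). Leaving out the female-profile arrays gave 1.09 (adjusted p = 0.0645). Nr4a3 was at 10.44, 10.58 and 10.63 against 9.68, 10.78 and 10.24 after exercise, and the difference of its effects was 2.06 (adjusted p = 0.139). Arrdc3 was at 8.51, 8.37 and 8.49 against 8.12, 8.88 and 8.32, with a difference of 1.01 (adjusted p = 0.430). The lists followed: early response genes lay at 0.28 at rest and −0.32 after exercise, and FOXO and fasting genes at 0.15 and −0.25, a change of list that was not tested.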

How the data were processed

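RNA of 12 gastrocnemius samples was measured on Affymetrix whole-transcript mouse arrays, 1 per sample. The authors deposited log2 values, for which the submitters' processing notes name RMA, Transcriptome Analysis Console and Affymetrix Expression Console, with versions and build not given in the sources used here. RMA sets arrays to 1 distribution, so differences are relative to the bulk of genes, and it compresses dim and very bright ones. Of 41345 probesets, 23521 have 1 symbol, 23328 of these matched RefSeq (GRCm38.p6), and the brightest probeset stood for each of 22180 genes. The dimmest 40% were not tested.

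With limma 3.58.1 in R 4.3.3, 1 model with a mean for each of 4 groups was fitted over the 12 arrays (8 residual degrees of freedom, eBayes with trend, two-sided, Benjamini-Hochberg over 13308 genes, called under 0.05) and tested on simulated data. The number of arrays limits the precision. Named genes are Esrra, all called genes, the next 10 by p in each direction, list members with the smallest p and, for contrast or as exceptions, further members chosen after their values were seen. Members and lists were chosen with earlier results of these data known. Medians of arrays ran from 5.15 to 5.26, and correlations between sedentary arrays from 0.954 to 0.985. Equal replicate numbers correlated in their deviations on exercised arrays (0.312, 0.207 and 0.174). On sedentary arrays the signs were mixed (−0.232, −0.278 and 0.347 for replicates 1 to 3). Alternatives tried were the replicate block, centring, filter, trend, probeset choice, tissue scores and arrays left out.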

Additional observations from a re-analysis of the deposited data

Results flagged for a closer look

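Pdk4 differed between the resting and the exercised comparison: its genotype effect at rest minus that after exercise was 1.26 log2 in the model's interaction test (adjusted p = 0.0121), and each of its sedentary null arrays lay above, each of its exercised null arrays below, the wild-type arrays of the same state.

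Probesets outside the gene-level comparison also passed at rest in a fit over all probesets. Probeset 17549062 (1.90 ± 0.13, adjusted p = 0.000127), probeset 17549150 (1.87 ± 0.08, adjusted p = 3.5e-06) and probeset 17401343 (0.85 ± 0.11, adjusted p = 0.0415) have no symbol in the table used, and probeset 17468364 (0.54 ± 0.07, adjusted p = 0.0415) has several. All 4 were higher in null muscle.

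The male accessory gland markers, none of which was bright enough over all arrays to be tested, had a summed level of 15.1 log2 in sedentary ERRα-null replicate 1 and of 6.57 to 6.78 on the other 5 sedentary arrays.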

How the results depend on the processing

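The 11 genes called at rest became 3 in a replicate block fit of all 12 arrays, 1 in a block fit of the 6 sedentary arrays, 4 with only those 6 arrays or without the arrays of female profile, 30 (13 higher, 17 lower) with tissue scores as covariates, and 1 to 9 when 1 sedentary array was left out. The 50 after exercise became 23 with the block over all arrays, 5 with only the exercised arrays or without those of female profile, 33 when probesets of a gene were averaged, 23 without the filter, 17 without trend, 79 with tissue scores, 95 with the stricter filter and 2 to 17 with 1 array left out. The single interaction call became 0 to 6 with 1 array left out, and without the arrays of female profile the 1 gene called was not Pdk4. Over 16 settings at rest all 11 genes kept their sign, Cabcoco1 kept its call in all 16, Nr4a3 and Pdk4 lost theirs in 5, and the other 8 in 8 to 12. Block fits at rest use replicate numbers whose sedentary arrays correlated in their deviations for replicate 3 (0.347) but not for 1 and 2 (−0.232 and −0.278).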

Other observations

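Some gene groups not described above also lay to 1 side at rest. Of 16 angiogenesis genes 14 were below wild type (median −0.12; −0.07 without null array 1), and Aplnr, the apelin receptor, was at 7.19, 7.36 and 7.34 in wild type and 6.42, 6.66 and 6.71 in null muscle (−0.70 ± 0.21, adjusted p = 0.312). After exercise the same gene lay 0.33 higher with overlapping arrays. Vegfb lay at −0.24 and the receptor Flt1 at −0.19, each without overlap at rest. Of 18 myogenic and regeneration genes 15 were above wild type (median 0.10, but 0.16 without null array 1 and 0.06 without null array 3 or wild-type array 3). The embryonic myosin Myh3 was at 4.88, 4.83 and 5.25 against 5.36, 5.59 and 6.26 (0.75, adjusted p = 0.273). Its sedentary wild-type arrays all lay under the level below which genes were not tested (5.32). Cry2, a circadian repressor, was at 7.72, 7.63 and 7.77 against 8.02, 8.01 and 8.31 (0.41, adjusted p = 0.179), while Nr1d1 (−0.45) and Per1 (0.47) overlapped.

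Of the 37 genes with an adjusted p under 0.1 at rest, 7 are on chromosome 19, which holds 468 of the 13308 tested genes. They are Esrra, Trmt112 (0.43), Trpt1 (−0.50), Sdhaf2 (−0.39), Ctsf (0.72), Gstp2 (−0.67) and As3mt (0.49), at 0, 1, 12, 84, 92, 129 and 468 protein-coding genes from Esrra. All 7 had the same sign after exercise. They were singled out after their values were seen, and no test of their position was made.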
